A study of Mus musculus with 13 samples.

Results

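The genes described here encode the proteins of the cytosolic ribosome, measured in the livers of mice on a high-fat diet, on a standard diet, and on a standard diet with a pollutant mixture. Members were taken by gene name: names of the form Rpl or Rps followed by a number, together with Rplp0, Rplp1, Rplp2 and Rpsa, without the S6 kinase genes and without predicted or transcribed pseudogenes. Rps12l2 and Rps4l were left out by the last of these. That gave 82 of the 29985 genes or transcripts on the array. They comprised 42 large-subunit genes, 31 small-subunit genes, 3 genes of the stalk and 6 copies whose names extend that of another member (Rpl3l, Rpl7l1, Rpl10l, Rpl22l1, Rpl39l and Rps27l). The filter on dim probes left 79 of them among the 19518 genes tested. Rpl3l (well above background on 10 of 13 arrays), Rpl10l (on at most 6) and Rpl39l (on 0) did not pass it and have no value below.

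The study hybridised liver RNA of female C57BL6 mice, 12 weeks old by the labels, to 13 one-colour arrays on 5 slides. HFHS vehicle had 5 animals, given the high-fat diet that the labels call HFHS and vehicle. ST vehicle had 3, given vehicle and the standard diet (ST). ST pollutants had 5, also on standard food, with a mixture of 4 pollutants. The labels name neither the pollutants nor the composition of the diets. The series text can be read as placing the mixture in the high-fat diet, and the sample labels, which give the standard diet, were followed. All 3 groups were female and of a single strain, so both vehicle groups and the pollutant group share these. The replicates are labelled biological.

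The cytosolic ribosome joins a small subunit, which reads the mRNA, to a large subunit, which forms the peptide bond. Most of its proteins are present in a single copy per ribosome, the acidic stalk proteins in more, and their genes are among the most highly transcribed in liver. Most of their mRNAs begin with a run of pyrimidines, the 5′ terminal oligopyrimidine (TOP) motif, through which the mTORC1 kinase, by way of LARP1 and the 4E-BP proteins, sets how much of them is translated. Ribosomal RNA is made separately by RNA polymerase I in the nucleolus, where the subunits are assembled. The genome also carries many near-identical processed copies of these genes, so an array probe may not tell a gene from its copies.

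Promoter stretches of members on which the results turn are given first, because a pyrimidine run near the start is the feature for which these genes are best known. They are from RefSeq (GRCm38.p6), and each runs from 35 bases before the annotated start to 30 bases after it, on the gene's own strand. Capitals mark every run of 7 or more letters that starts with C and holds only C or T, within 30 bases of the start. Rpl27a, Rps27, Rpl4, Rplp0, Rpsa and Rps15 were among the most negative members in HFHS vehicle against ST pollutants. Rpl22l1 was the most negative in HFHS vehicle against ST vehicle, and Rpl39, Rps27l and Rpl7l1 stood at the other end of the former comparison.
Rpl27a promoter, chr7:109519160-109519224, + strand: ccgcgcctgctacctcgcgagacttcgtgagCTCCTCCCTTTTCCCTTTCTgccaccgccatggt
Rps27 promoter, chr3:90213619-90213683, - strand: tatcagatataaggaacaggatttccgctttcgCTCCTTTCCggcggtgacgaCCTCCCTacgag
Rpl4 promoter, chr9:64173352-64173416, + strand: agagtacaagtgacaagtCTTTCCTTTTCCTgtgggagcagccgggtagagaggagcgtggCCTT
Rplp0 promoter, chr5:115559432-115559496, + strand: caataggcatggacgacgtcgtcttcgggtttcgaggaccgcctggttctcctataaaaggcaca
Rpsa promoter, chr9:120127731-120127795, + strand: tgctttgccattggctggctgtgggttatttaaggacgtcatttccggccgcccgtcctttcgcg
Rps15 promoter, chr10:80292396-80292460, + strand: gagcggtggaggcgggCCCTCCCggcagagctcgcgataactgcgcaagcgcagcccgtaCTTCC
Rpl22l1 promoter, chr3:28805473-28805537, + strand: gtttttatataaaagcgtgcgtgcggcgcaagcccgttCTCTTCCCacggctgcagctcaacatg
Rpl39 promoter, chrX:37085193-37085257, - strand: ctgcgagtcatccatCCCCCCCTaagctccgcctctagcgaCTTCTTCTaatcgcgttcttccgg
Rps27l promoter, chr9:66946051-66946115, + strand: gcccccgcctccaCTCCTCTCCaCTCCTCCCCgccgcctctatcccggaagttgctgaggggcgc
Rpl7l1 promoter, chr17:46782627-46782691, - strand: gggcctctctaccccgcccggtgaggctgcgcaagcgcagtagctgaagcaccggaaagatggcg

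Of the 82 members, 62 had an entry in the RefSeq promoter table, with 74 starts in all. A run starting within 30 bases of the start was present at 45 of these 74 starts (60.8%), against 27.5% of all 32544 starts in the table. The run of Rpl27a was 20 letters long and began 4 bases before the annotated start, and that of Rps27 was 9 letters long and began 2 bases before it. Rplp0, Rpsa and Rpl7l1 had no such run in the window, and a run may go on past the printed stretch. CCGGAAG, a core recognised by ETS-family factors, was found on either strand in the 300 bases of 35.1% of the members' entries and 8.91% of all entries. TCTCGCGAG was found on either strand in 10.8% of them and 0.682% of all. AAGATGGC, which can share its first letters with the end of CCGGAAG, was found on either strand in 10.8% and 2.77%. TATAAA on the gene's strand was found in 8.11% and 8.28%. These are matches of letters in a fixed window.

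Some probes behind the values are shown next. For Rpl27a it is the probe behind its values. For Rplp0 both of 2 overlapping probes are shown, with capitals at the bases where they differ. Positions are those of the files, on mm9.
Rpl27a probe, chr7:116664097-116664156, + strand: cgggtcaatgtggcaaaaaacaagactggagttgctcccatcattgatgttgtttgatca
Rplp0 second probe, chr5:116013397-116013456, + strand: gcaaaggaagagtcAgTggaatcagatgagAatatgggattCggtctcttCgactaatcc
Rplp0 probe used, chr5:116013404-116013463, + strand: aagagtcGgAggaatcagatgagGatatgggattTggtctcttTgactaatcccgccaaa
The files place the 2 Rplp0 probes 7 bases apart, and over the 53 letters they share at that offset 5 differ. They cannot both match that stretch letter for letter. Whether the values given for Rplp0 hold signal of a copy was not tested. Their differences between HFHS vehicle and ST pollutants were -0.30 ± 0.07 and -0.31 ± 0.08 (log2, SE).

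A level below is the log2 processed signal of the gene's brightest probe less the 75th percentile of its array, so that 0 is that percentile, and a difference of 1 is a doubling. Before scaling, the 75th percentile lay between 782 and 1354 intensity units, and 62.8% to 69.5% of the probes of an array were well above background. All 79 members tested were well above background on all 13 arrays, none was saturated, and no member value was missing. Levels of different members are not compared, since they come from different probes. The SD between arrays of a group had a median over the members of 0.12 in HFHS vehicle, 0.09 in ST vehicle and 0.12 in ST pollutants. The error given with a log2 fold change is its standard error (SE). A gene was called at a Benjamini-Hochberg adjusted p under 0.05 over all 19518 genes in limma.

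The members varied together from array to array. Each member's level was set against its own mean over the 13 arrays, and the median of these deviations over the 79 members was taken for each array. In HFHS vehicle the medians of replicates 1 to 5 were -0.107, -0.223, -0.105, -0.054 and 0.018. In ST vehicle the medians of replicates 1 to 3 were -0.044, 0.054 and 0.032. In ST pollutants the medians of replicates 1 to 5 were 0.062, -0.001, 0.117, 0.025 and 0.238. The lowest array was HFHS vehicle replicate 2, on which 2 of 79 members lay above their own mean, and the highest was ST pollutants replicate 5, on which 76 did. HFHS vehicle and ST pollutants overlapped by a single array, HFHS vehicle replicate 5, where 42 members lay above their mean.

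**Figure D1:**
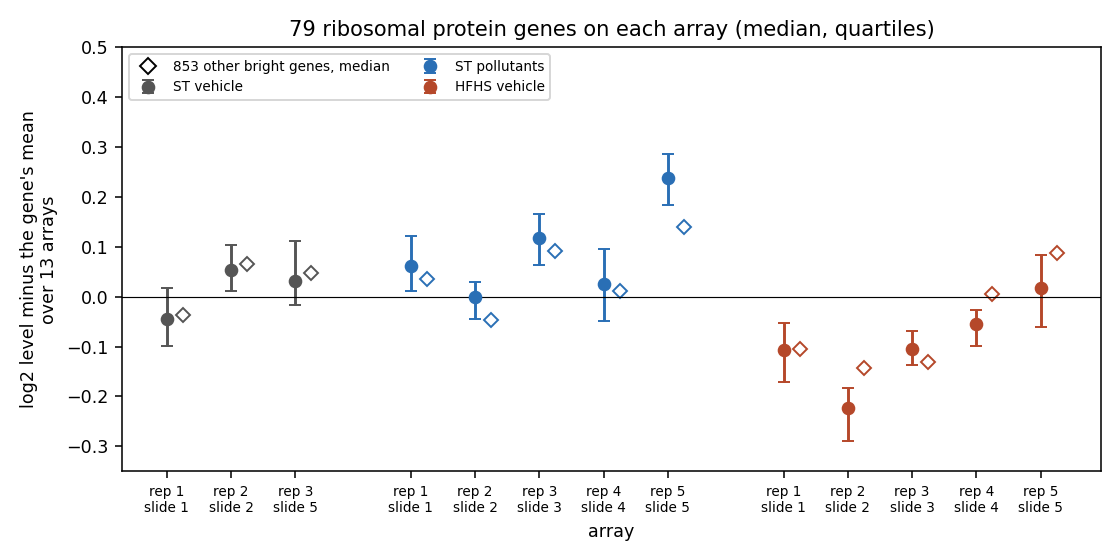
Median (point) and quartiles (bars) over 79 members of the log2 level minus the gene's own mean over 13 arrays, for each array, with the median of 853 other genes as bright as the members (open diamonds). HFHS vehicle arrays lie between -0.223 and 0.018, ST vehicle arrays between -0.044 and 0.054, and ST pollutants arrays between -0.001 and 0.238; the diamonds move with the points.

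Other bright genes moved with the members. The 853 other genes whose mean level was at or above 5.43, the lower quartile of the members, had array medians of -0.143 to 0.087 in HFHS vehicle, -0.037 to 0.065 in ST vehicle and -0.047 to 0.14 in ST pollutants. Their part in the results below was not tested, and their values are given beside each comparison. The arrays are of whole liver, in which fewer cells of a type and less RNA per cell cannot be told apart.

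The first comparison set HFHS vehicle against ST pollutants (n = 5 and 5), which differ in both diet and mixture, so the part of each cannot be told apart. Most members had a small negative fold change for HFHS vehicle minus ST pollutants, and few passed the test. Of 79 members, 77 had a negative fold change, against 51.1% of all genes tested, and 2 a positive one, against 48.9%, and the median over the members was -0.180, against -0.005 over all genes. The quartiles of the members were -0.241 and -0.136. Of the 79, 2 were called lower and 0 higher, where 2.3% of all genes were called lower and 1.57% higher. At an unadjusted p under 0.05, 46 members were lower and 0 higher, against 10.6% and 7.64% of all genes. Of the 853 other bright genes, 584 had a negative fold change, with a median of -0.072. Of them 72 were called lower, a higher share than among the members. At an unadjusted p under 0.05, 231 of them were lower, a smaller share than among the members.

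Rpl27a, a protein of the large subunit, was called lower. Its levels in HFHS vehicle were 5.72, 5.45, 5.61, 5.60 and 5.60, in ST vehicle 5.78, 5.92 and 5.83, and in ST pollutants 5.91, 5.82, 5.87, 5.80 and 6.0. The HFHS vehicle arrays were the 5 lowest of the 13, with replicate 2 the lowest. The log2 fold change was -0.29 ± 0.07, a level 1.22-fold lower (adjusted p = 0.0404).

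The call did not hold in most other settings. The adjusted p of Rpl27a was under 0.05 in 3 of 27 other settings, and with slide as a block it was 0.0662. With that block 4 members were called lower, against 2.53% of all genes. They were Rpl4 (-0.27 ± 0.06, adjusted p = 0.0391), Rps15 (-0.31 ± 0.06, 0.0394), Rps21 (-0.27 ± 0.06, 0.0471) and Rps27 (-0.31 ± 0.07, 0.0495). Each slide held 1 array of either group, and the members' median difference within slides 1 to 5 was -0.176, -0.222, -0.225, -0.071 and -0.252. On slide 4, 57 of 79 members were negative, and on the other slides 72 to 77. The difference had the same sign on all 5 slides for 54 members that were lower, where 12.3% of all genes were lower on all 5.

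**Figure D2:**
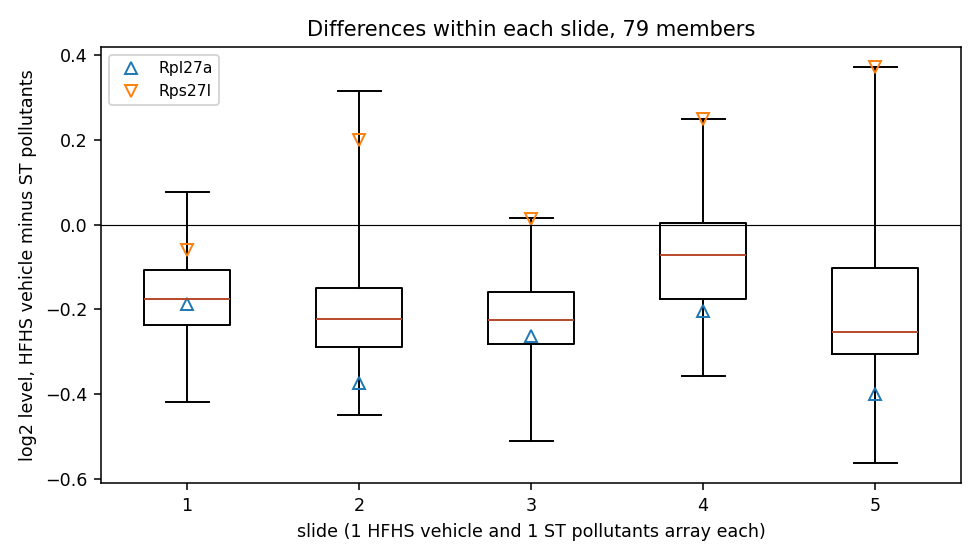
Differences in log2 level between the HFHS vehicle and the ST pollutants array of each slide over 79 members, with boxes for the quartiles, a line for the median and whiskers for the range, and markers for Rpl27a and Rps27l. The median is below 0 on all 5 slides and nearest to 0 on slide 4, and Rps27l lies above 0 on 4 of 5 slides.

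Other members narrowly missed the threshold. Rpsa, a small-subunit protein also known as a laminin receptor precursor, had a fold change of -0.30 ± 0.08 (adjusted p = 0.0571), with levels of 6.61, 6.45, 6.54, 6.72 and 6.76 in HFHS vehicle and 6.94, 6.89, 6.92, 6.76 and 7.06 in ST pollutants. Its other probes kept had -0.31 ± 0.07, -0.27 ± 0.06 and -0.06 ± 0.17. In limma over all 25030 probes kept, their adjusted p was 0.0351, 0.0388 and 0.94. Over the other settings the adjusted p of Rpsa was 0.0504 to 0.953. Rpl4 had -0.27 ± 0.07 (adjusted p = 0.0589), with 5.08, 4.99, 5.15, 5.21 and 5.26 against 5.32, 5.33, 5.43, 5.47 and 5.49. In both the groups did not overlap, though for Rpsa HFHS vehicle replicate 5 and ST pollutants replicate 4 both round to 6.76. In all, 17 members lay lower without overlap (4.19% of all genes did) and 1, Rpl7l1, lay higher (2.74%).

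Rps27 and Rps15, both of the small subunit, were among the 3 members with the most negative fold changes. Rps27 had -0.31 ± 0.12 (adjusted p = 0.185) and Rps15 had -0.31 ± 0.10 (adjusted p = 0.113), and both overlapped between the groups. The Rps27 values rest on a probe that the files place on chromosome 9, while RefSeq has the gene on chromosome 3, and the same holds for all 4 of its probes kept. The signal of the gene and that of a copy there cannot be told apart. Rps29 is the other member whose probe used lies on another chromosome than its gene. Positions within a chromosome were not checked. The Rps2 probe used lies at chr17:42864841-42864900, away from its other probe at chr17:24857583-24857642.

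Every gene of both subunits was on the negative side. All 42 large-subunit members were negative, with a median of -0.174. All 31 small-subunit members were negative, with a median of -0.20. The difference between the subunits was not tested. The least negative gene of the subunits was Rpl39, at -0.04 ± 0.08 (adjusted p = 0.929), with 5.17, 5.08, 5.13, 5.23 and 5.47 in HFHS vehicle and 5.24, 5.23, 5.20, 5.22 and 5.36 in ST pollutants. The groups overlapped for Rpl39, and HFHS vehicle replicate 5 was its highest array.

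**Figure D3:**
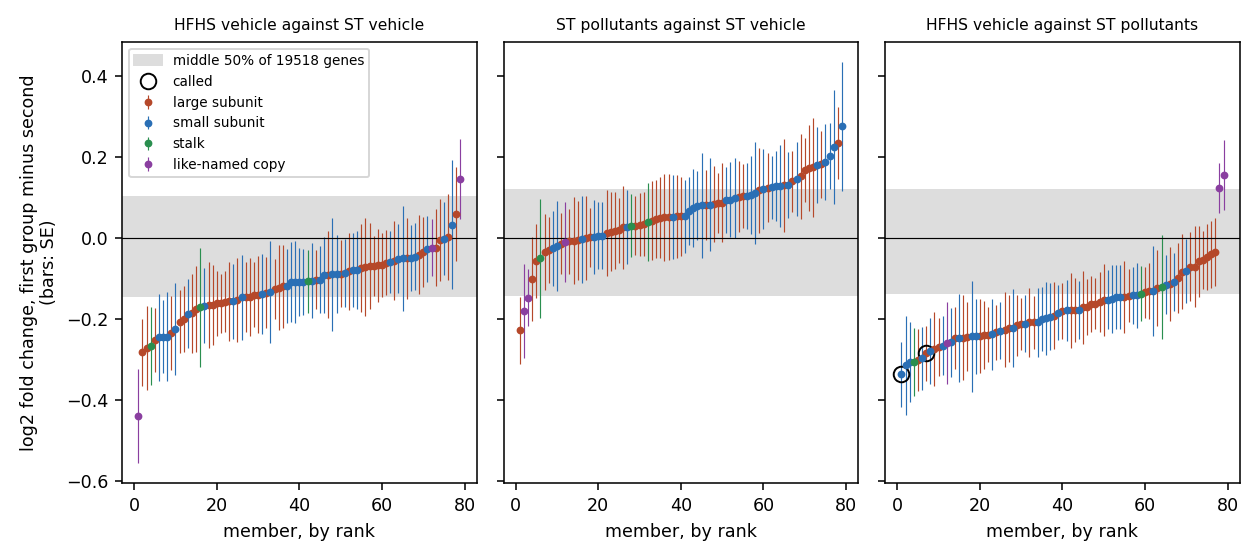
Log2 fold change of each of 79 members (points, with SE), ranked within each of 3 comparisons and coloured by class, over the middle 50% of the 19518 genes tested (grey). The 2 called members, Rpl27a among them, are circled in HFHS vehicle against ST pollutants, where 77 of 79 points lie below 0.

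The size of the shift depended on how the arrays were scaled. Quantile normalisation, which gives all arrays the same distribution, brought the members' median to -0.068 with 62 of 79 negative. It called 0 of them lower, against 2.09% of all genes. Normexp background correction with quantile normalisation gave -0.072 and 60 of 79, and the authors' deposited table, already normalised, gave -0.093 and 69 of 81. Cyclic loess, tried after the data were seen, gave -0.122 and 73 of 79. The 853 bright genes, at -0.072 in the percentile scaling, stood at 0.03 under quantile normalisation and -0.001 under cyclic loess. The members' median was negative in all 27 other settings, between -0.255 and -0.068.

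The second comparison set HFHS vehicle against ST vehicle (n = 5 and 3) and addresses the diet without the mixture. Most fold changes were again negative, with a median nearer to 0, and none was called (0.236% of all genes were called higher and 0.451% lower). Of 79 members, 75 were negative, against 54.5% of all genes, and the median was -0.11, against -0.019 over all genes. In limma 13 members were lower and 0 higher at an unadjusted p under 0.05, against 7.1% and 4.97% of all genes. Of the 853 bright genes 144 were lower and 14 higher at that level, about the same share lower as among the members. The 853 bright genes had a median of -0.072 here, and quantile normalisation brought the members' median to -0.029 with 55 of 79 negative. Within slides 1, 2 and 5, which held 1 array of either group each, the members' medians were -0.068, -0.279 and -0.038.

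Rpl22l1 had the largest difference of any member in any comparison. It is a paralogue of Rpl22 that can take its place in the large subunit. Its levels were 4.09, 3.99, 3.86, 4.11 and 4.29 in HFHS vehicle and 4.47, 4.41 and 4.65 in ST vehicle. The groups did not overlap, and the fold change was -0.44 ± 0.12, or 1.36-fold lower (adjusted p = 0.132, and 0.0956 to 0.356 over the other settings). The differences within slides 1, 2 and 5 were -0.38, -0.41 and -0.36.

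Rpl3, which lies near the centre where peptide bonds form, was next. Its levels were 5.48, 5.40, 5.50, 5.52 and 5.58 in HFHS vehicle, 5.72, 5.89 and 5.72 in ST vehicle, and 5.52, 5.65, 5.61, 5.37 and 5.61 in ST pollutants. The 3 ST vehicle arrays were the highest of the 13. The fold change was -0.28 ± 0.08 in HFHS vehicle (adjusted p = 0.178) and -0.23 ± 0.08 in ST pollutants (adjusted p = 0.261), each against the same 3 ST vehicle arrays. Between HFHS vehicle and ST pollutants Rpl3 differed by -0.05 ± 0.07 (adjusted p = 0.813).

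Rpl27a (-0.25 ± 0.08, adjusted p = 0.210), Rplp0 (-0.27 ± 0.10, 0.266), Rpsa (-0.24 ± 0.09, 0.280) and Rpl18 (-0.21 ± 0.08, 0.289) completed the 6 members of smallest p, and none of them overlapped between the groups. Rpl12, which binds the base of the stalk, had -0.27 ± 0.10 (adjusted p = 0.296) and overlapped. In all, 13 members lay lower without overlap and 0 higher, against 5.33% and 3.82% of all genes. At the other end stood Rps27l (0.14 ± 0.10), Rpl34 (0.06 ± 0.12) and Rps19 (0.03 ± 0.16), with adjusted p of 0.684, 0.966 and 0.992. The 3 arrays of ST vehicle limit the precision, and those of Rps19 spread from 3.51 to 4.21.

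The third comparison set ST pollutants against ST vehicle (n = 5 and 3) and addresses the mixture on the standard diet. Most fold changes were slightly positive and none was called (0.543% of all genes were called higher and 0.441% lower). Of 79 members, 62 were positive, against 48.2% of all genes, with a median of 0.053, against -0.009 over all genes. In limma 3 members were higher and 1 lower at an unadjusted p under 0.05, against 5.88% and 6.26% of all genes, so the members' shares were below those of the whole table. The members' median within slides 1, 2 and 5 was 0.101, -0.062 and 0.196, with 60 of 79 members negative on slide 2. The 853 bright genes had a median of 0.013, with 85 higher and 45 lower at an unadjusted p under 0.05. Without ST pollutants replicate 5 the members' median was 0.016.

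The members higher at that level included Rps6 and Rpl4. Rps6 is the small-subunit protein that S6 kinase phosphorylates below mTORC1. Its levels were 6.06, 5.97, 6.11, 6.09 and 6.18 in ST pollutants, 5.85, 6.04 and 5.75 in ST vehicle, and 5.86, 5.81, 5.93, 5.86 and 5.80 in HFHS vehicle. Its fold change with the mixture was 0.20 ± 0.08 (adjusted p = 0.328), and the groups overlapped through ST vehicle replicate 2. Against HFHS vehicle, ST pollutants stood apart, with a fold change of -0.23 ± 0.07 for HFHS vehicle minus ST pollutants (adjusted p = 0.0998).

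Rpl4 had 0.18 ± 0.08 (adjusted p = 0.404) with the mixture, without overlap between the groups. Rpl6 had 0.17 ± 0.08 (adjusted p = 0.437), also without overlap, though the nearest arrays stood at 6.27 in ST pollutants and 6.26 in ST vehicle. The other probes of Rpl6 had 0.079 ± 0.077, 0.161 ± 0.093 and, for the dimmest, -0.159 ± 0.125. Among the 3 largest fold changes were those of Rps19 (0.28 ± 0.16, adjusted p = 0.573) and Rps27 (0.22 ± 0.14, adjusted p = 0.622), which overlapped. In all, 5 members lay higher without overlap and 2 lower, Rpl3 and Rpl7l1, where 3.92% and 4.4% of all genes did.

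In HFHS vehicle against ST pollutants the 2 members with a positive fold change were copies, Rps27l and Rpl7l1. Of the 6 copies 3 could be tested, and Rpl22l1 was negative there like most members. Rps27l, a copy of Rps27 known as a target of p53, had levels of 5.82, 5.89, 5.82, 6.0 and 6.24 in HFHS vehicle, 5.77, 5.83 and 5.84 in ST vehicle, and 5.88, 5.69, 5.81, 5.75 and 5.87 in ST pollutants. HFHS vehicle replicates 4 and 5 were the highest of the 13 arrays, and the other arrays of the groups overlapped. Its fold change for HFHS vehicle minus ST pollutants was 0.15 ± 0.09 (adjusted p = 0.388), where the probe named for Rps27 had -0.31 ± 0.12. Under quantile normalisation Rps27l was called higher (0.26, adjusted p = 0.0335).

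Rpl7l1, a nucleolar relative of Rpl7, had levels of -0.94, -0.85, -0.94, -0.95 and -0.88 in HFHS vehicle, -0.94, -0.88 and -0.83 in ST vehicle, and -1.02, -1.16, -0.96, -1.07 and -0.97 in ST pollutants. The 5 ST pollutants arrays were the lowest of the 13. Its fold change for HFHS vehicle minus ST pollutants was 0.12 ± 0.06 (adjusted p = 0.321) and for ST pollutants minus ST vehicle -0.15 ± 0.07 (adjusted p = 0.439), where Rpl7 had -0.16 ± 0.07 (0.223) and 0.10 ± 0.08 (0.727).

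Rpl22l1 and Rpl22 differed most in HFHS vehicle against ST vehicle, where Rpl22 was at 0.00 ± 0.11 (adjusted p = 0.999) beside -0.44 for Rpl22l1. In ST pollutants Rpl22l1 had levels of 4.51, 4.37, 4.37, 4.32 and 4.07. Replicate 5, the array on which the members as a set were highest, was its lowest there. Its fold change for HFHS vehicle minus ST pollutants was -0.26 ± 0.10 (adjusted p = 0.189), and that of Rpl22 was -0.115 ± 0.09 (adjusted p = 0.601). Differences between a copy and its parent were not tested.

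**Figure D4:**
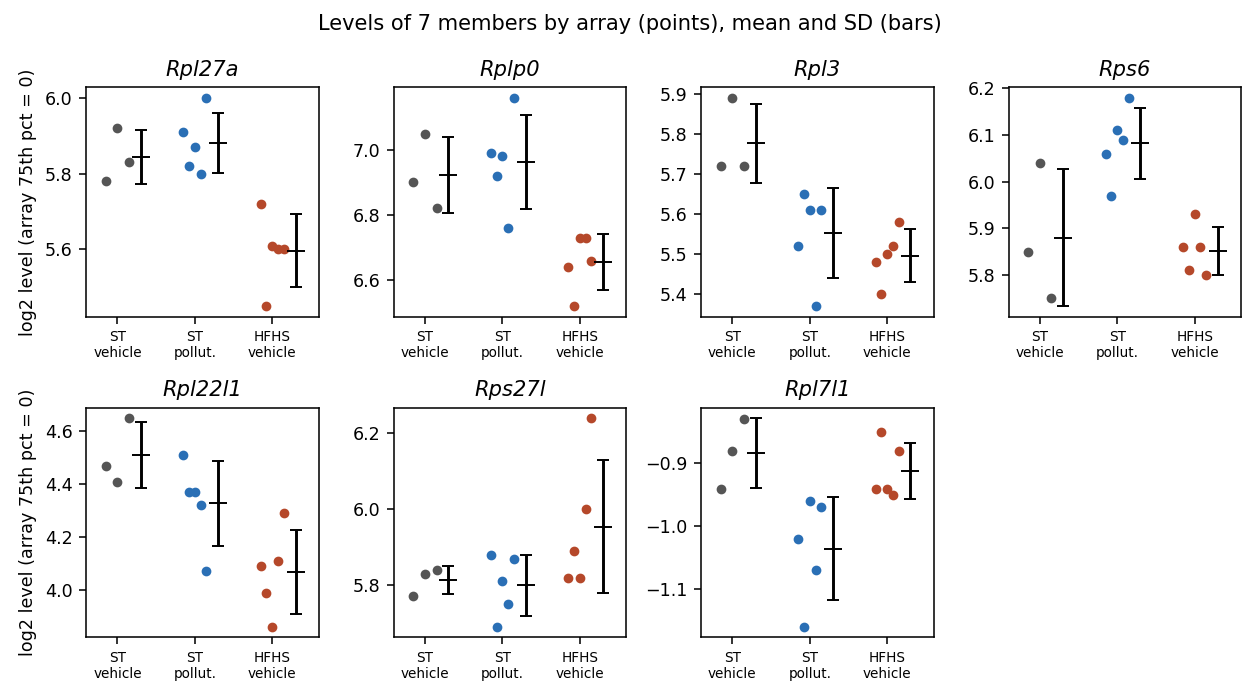
Log2 level (array 75th percentile at 0) of 7 members on each array (points) with the mean and SD of each group (bars), on axes that differ between panels and do not start at 0. HFHS vehicle lies below ST pollutants without overlap for Rpl27a, Rplp0 and Rps6, ST vehicle is highest for Rpl3 and Rpl22l1 by mean, and HFHS vehicle lies above ST pollutants for Rpl7l1.

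The 3 stalk genes gave unequal values. Rplp0 anchors the stalk that recruits elongation factors, and is widely used as a reference transcript in PCR. Its levels were 6.64, 6.52, 6.73, 6.73 and 6.66 in HFHS vehicle, 6.90, 7.05 and 6.82 in ST vehicle, and 6.99, 6.92, 6.98, 6.76 and 7.16 in ST pollutants. The 5 HFHS vehicle arrays were the lowest of the 13. The fold change for HFHS vehicle minus ST pollutants was -0.31 ± 0.08, or 1.24-fold lower (adjusted p = 0.0658), and for ST pollutants minus ST vehicle 0.04 ± 0.10 (adjusted p = 0.953). It was called in 3 of 27 other settings, with adjusted p of 0.0415 at the lowest and 0.474 at the highest.

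Rplp1 and Rplp2, the acidic proteins that form the stalk's tips, had smaller differences between HFHS vehicle and ST pollutants, of -0.12 ± 0.13 (adjusted p = 0.738) and -0.14 ± 0.07 (adjusted p = 0.312), and both overlapped. Rplp1 varied within groups, from 6.69 to 7.26 in ST vehicle and from 6.64 to 7.17 in HFHS vehicle. Against ST vehicle the HFHS vehicle difference was -0.17 ± 0.15 (adjusted p = 0.799) for Rplp1 and -0.11 ± 0.08 (adjusted p = 0.713) for Rplp2. With the mixture the differences were -0.05 ± 0.15 and 0.03 ± 0.08 (adjusted p = 0.962 and 0.955).

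Several probes of a member could be compared for 60 members. Over all 182 probes kept, 171 were negative in HFHS vehicle against ST pollutants, against 12745 of all 25030 probes, and 9 were called, against 857. Of the 60 members 52 had only negative probes, 8 had both signs and 0 had only positive probes. In HFHS vehicle against ST vehicle 175 probes were negative, against 13540 of all, and 3 members had both signs. In ST pollutants against ST vehicle 49 probes were negative, against 12947 of all, and 18 members had both signs. For Rpl27a in HFHS vehicle against ST pollutants the probe used had -0.29 ± 0.07 and the second -0.32 ± 0.07, while the dimmest had -0.06 ± 0.13. The call of Rpl27a was made on the probe used, its brightest. In limma over all 25030 probes kept, the adjusted p was 0.0443 for that probe, 0.0246 for the second and 0.909 for the dimmest.

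Genes that work with the ribosome were set beside the members. The lists were translation factors, ribosome biogenesis factors, RNA polymerase I with its factors, mTORC1 and TOP mRNA control, nuclear-encoded subunits of oxidative phosphorylation, and mitochondrial ribosomal proteins. In both comparisons with ST vehicle 0 genes of these lists were called. In HFHS vehicle against ST pollutants the translation factors leaned the same way as the members, with 36 of 38 negative and a median of -0.123. Against 2.3% of all genes, 1 of the 38 was called lower. That was Eef2, the factor that moves the ribosome along the mRNA, at -0.38 ± 0.08, or 1.30-fold lower (adjusted p = 0.0269). Eef2 was called in 12 of the 27 other settings.

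Of 71 ribosome biogenesis factors tested 51 were negative, with a median of -0.078, and 2 were called lower, a share near the 2.3% of all genes. Ddx21, a nucleolar RNA helicase, had -0.67 ± 0.13 (adjusted p = 0.0145), and Ncl, which encodes nucleolin, had -0.42 ± 0.10 (adjusted p = 0.0376). Both lay lower without overlap and were lower on all 5 slides. Ddx21 was called in 23 of the 27 other settings and Ncl in 10. Riok2, a kinase of small-subunit maturation, was the member of this list with the smallest p in both comparisons with ST vehicle. It had 0.39 ± 0.13 in HFHS vehicle (adjusted p = 0.225) and 0.49 ± 0.13 in ST pollutants (adjusted p = 0.0968).

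Of 20 genes of RNA polymerase I, 3 were called lower and 1 higher, against 2.3% and 1.57% of all genes, with a median of -0.04. Ubtf, the upstream binding factor that opens ribosomal RNA genes, had -0.75 ± 0.13, or 1.68-fold lower (adjusted p = 0.00842), but -0.005 with the dimmest of its probes. Taf1d, a subunit of the promoter selectivity factor, had -0.55 ± 0.10 (adjusted p = 0.0102), and Polr1d, a subunit shared by polymerases I and III, had -0.30 ± 0.07 (adjusted p = 0.0383). Polr2k, a subunit shared by all nuclear polymerases, was higher, at 0.29 ± 0.06 (adjusted p = 0.0250). Of the 27 other settings, Ubtf was called in 25, Taf1d in 24, Polr2k in 17 and Polr1d in 8.

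Of 28 genes of mTORC1 and TOP mRNA control, 1 was called, where 2.3% of all genes were called lower and 1.57% higher. Pdcd4, a translation inhibitor that binds eIF4A and is degraded after S6 kinase acts on it, was higher in HFHS vehicle than in ST pollutants, at 0.81 ± 0.15, or 1.76-fold (adjusted p = 0.0104). Its level was 2.64 ± 0.18 in HFHS vehicle (SD, n = 5), 2.32 ± 0.26 in ST vehicle (n = 3) and 1.83 ± 0.28 in ST pollutants (n = 5). It was higher on all 5 slides, by 0.34 to 1.18, and was called in 25 of the 27 other settings. In ST pollutants against ST vehicle it had -0.49 ± 0.17 (adjusted p = 0.237).

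The mitochondrial lists leaned the other way. Of 77 mitochondrial ribosomal proteins 60 were positive, with a median of 0.071, and 2 were called higher, against 1.57% of all genes. These were Mrpl35 (0.39 ± 0.09, adjusted p = 0.0387) and Mrps25 (0.38 ± 0.10, adjusted p = 0.0494). Mrpl35 was called higher in 9 of the 27 other settings and Mrps25 in 3. Of 82 oxidative phosphorylation subunits 60 were positive, with a median of 0.066, and 0 were called, where 6 were called higher under quantile normalisation and 8 with normexp. Of all 19518 genes, 341 and 256 were called higher in those 2 settings. At an unadjusted p under 0.05, 7 of the 82 subunits were higher and 1 lower in limma, where 7.64% and 10.6% of all genes were. Ndufc1 and Ndufb4, both of complex I, had the smallest p, with 0.25 ± 0.07 (adjusted p = 0.0769) and 0.24 ± 0.07 (adjusted p = 0.0850). These 6 lists kept the sign of their median in HFHS vehicle against ST pollutants under median centring, quantile normalisation, normexp with quantile normalisation, cyclic loess and the authors' deposited table.

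**Figure D5:**
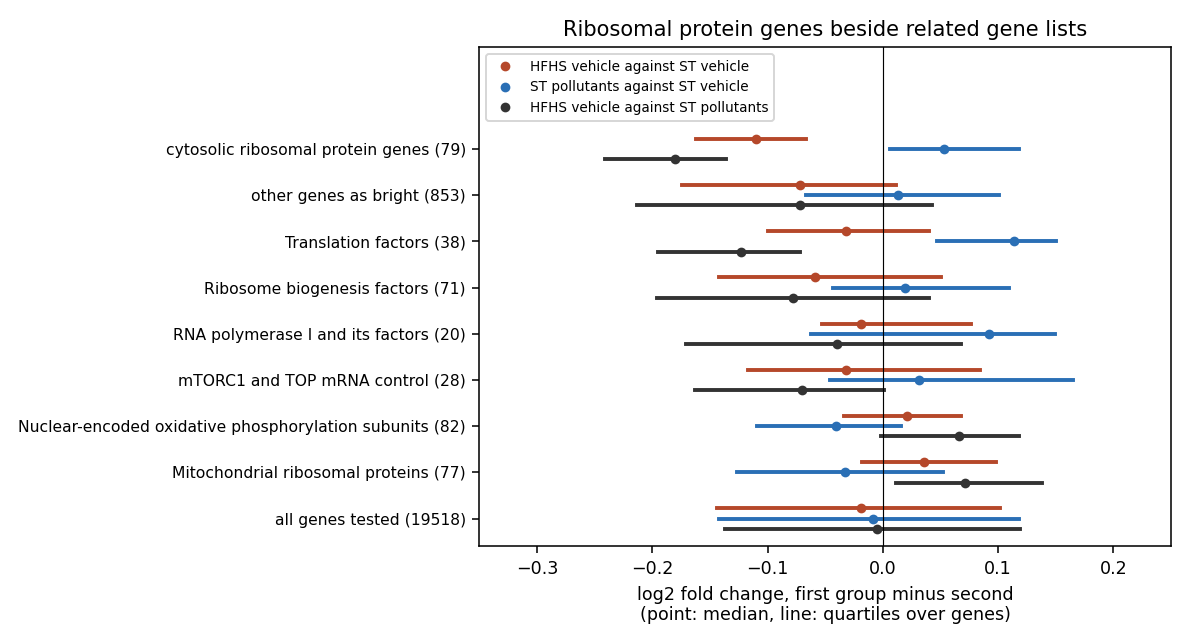
Median (point) and quartiles (line) of the log2 fold change over the genes of each list in 3 comparisons, with the number of genes tested in brackets. In HFHS vehicle against ST pollutants the ribosomal protein genes lie at -0.180, the translation factors at -0.123 and the mitochondrial ribosomal proteins at 0.071.

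Markers of other cell types differed between arrays. Pancreatic acinar markers (13 of 18 listed passed the filter) had a mean log2 level of 3.06 to 6.41 on HFHS vehicle replicates 3, 4 and 5, of -2.84 and -3.08 on replicates 1 and 2, and of -3.46 to -1.91 on the other 8 arrays. Without those 3 arrays the members' median in HFHS vehicle against ST pollutants was -0.255, with 77 of 79 negative. Of the members 0 were called, against 1.01% of all genes called lower. HFHS vehicle then rests on replicates 1 and 2 alone, and replicate 2 was the lowest array of the members. Skeletal muscle markers (10 of 12) ranged from -4.27 to 0.12 in HFHS vehicle, -2.89 to -0.10 in ST vehicle and -2.45 to 0.35 in ST pollutants. All 10 were negative in HFHS vehicle against ST pollutants, with a median of -2.651, 7 at an unadjusted p under 0.05 and 0 called. Hepatocyte markers (9 of 10) ranged from 7.15 to 7.55, 7.46 to 7.62 and 7.50 to 7.84, so the defining genes of the labelled tissue were present on every array. All 9 were negative in HFHS vehicle against ST pollutants, with a median of -0.111 and 1 called lower. Erythroid markers (6 of 8) ranged from 3.20 to 3.92 in HFHS vehicle, 3.18 to 3.61 in ST vehicle and 3.72 to 4.14 in ST pollutants. Of these, 6 of 6 were positive in ST pollutants against ST vehicle (median 0.515, 4 at an unadjusted p under 0.05) and 5 of 6 negative in HFHS vehicle against ST pollutants (median -0.271). Cholangiocyte markers (6 of 7) ranged from -1.94 to -1.73, -1.89 to -1.63 and -1.99 to -1.28, and 5 of 6 were negative in HFHS vehicle against ST pollutants (median -0.441, 3 at an unadjusted p under 0.05). The remaining 1 was higher at that level, by 0.911. In HFHS vehicle against ST vehicle 1 was called higher, at 2.273, and 5 were negative. Of 7 adipocyte markers tested, 4 were negative in HFHS vehicle against ST pollutants (median -0.303), and 1 was called higher, at 1.196. Of all genes tested, 2.3% were called lower and 1.57% higher in HFHS vehicle against ST pollutants. At an unadjusted p under 0.05 in limma, 10.6% were lower and 7.64% higher there. In ST pollutants against ST vehicle 5.88% were higher at that level, and in HFHS vehicle against ST vehicle 0.236% were called higher. The part of muscle, hepatocyte, erythroid, bile duct and adipocyte RNA in the members' values was not tested.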

How the data were processed

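Liver RNA was hybridised to 13 Agilent 4x44K arrays in Cy3. Per the file headers, the authors' files hold linear intensity values and quality flags from Feature Extraction 11.5.1.1. A second file deposited by the authors gives log2 values, already normalised, for 26082 probes. The submitters' processing notes name limma for it. That the scale is log2 was read from its values, and 13 of 13 columns correlated best with the array of the same label.

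Processed signals were put on a log2 scale, spots of one probe averaged, and arrays scaled to their 75th percentile. Probes had to be well above background throughout 1 or more groups, which kept 25030, and the brightest stood for its gene. A model of 3 groups on 13 arrays was fitted with limma 3.58.1 in R 4.3.3, after a test on simulated data. Alternatives changed the background, normalisation, filter, probe, block and arrays. The members, lists and rule for named genes (called members, or else the 6 of smallest p; the 3 extremes each way; copies with parents; the stalk; up to 4 genes a list) were chosen with earlier results of these data known. Results of some genes are not reported here. Slide numbers come from the file headers. Replicates share no stated pairing: p-values measure the spread between the animals' samples.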

Additional observations from a re-analysis of the deposited data

Results flagged for a closer look

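Among 44 groups of 5 arrays checked (21 named members and the members' median in HFHS vehicle and in ST pollutants), 1 had an array far from the others, and chance alone flags about 1 in 20. Rpl39 stood at 5.36 on ST pollutants replicate 5, above the other 4 arrays at 5.20 to 5.24.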

How the results depend on the processing

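In HFHS vehicle against ST pollutants the members' median stayed negative in all 27 other settings. It moved by more than the replicate spread to -0.072 (normexp with quantile normalisation) and -0.068 (quantile normalisation). The members called lower, 2 as reported, numbered 0 with normexp and quantile, quantile, or cyclic loess normalisation, median centring, no filter on dim probes, the authors' table, only the 2 groups compared, without HFHS vehicle replicates 3 to 5 (acinar transcripts high), and without slide 1. In those settings 0.00512% to 2.11% of all genes were called lower. The members called lower numbered 1 with the mean of a gene's probes (1.98% of all genes). They numbered 3 where all arrays had to be well above background (2.67%), and 4 with slide as a block (2.53%). Quantile normalisation called 1 member higher, and 341 of all 19518 genes. With the replicate number as a block 2 members were called lower, Rpl4 and Rps27, against 1.78% of all genes. That block called 0 members in the comparisons with ST vehicle. Same-numbered arrays correlated by -0.021 to 0.523, and not every pair was above 0.1, so the numbers were not taken as pairs. In that comparison the number is also the slide, and pairs had a median of 0.183 against -0.096 for other arrays. Arrays on one slide correlated by 0.238 to 0.563 and 0.13 to 0.417 in the comparisons of HFHS vehicle and ST pollutants with ST vehicle, where slide as a block called 0 members. Leaving out one replicate at a time gave 0 to 2 members called lower, against 1.16% to 2.17% of all genes. The members' median was then -0.215 to -0.15. The count of members called was 0 without HFHS vehicle replicate 2 or 5, ST vehicle replicate 1, or ST pollutants replicate 1, 3 or 5. With the dimmest probe Mrps25 turned to -0.177.

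In HFHS vehicle against ST vehicle the median, -0.109, moved to -0.034 (normexp with quantile normalisation), -0.029 (quantile normalisation), -0.03 (the authors' table) and -0.19 (without HFHS vehicle replicates 3 to 5), and ranged from -0.144 to -0.082 with one replicate left out. In ST pollutants against ST vehicle it ranged from 0.016 to 0.09, and 0 members were called in any setting of either comparison. Causes were not tested. Cyclic loess was chosen after seeing the data. The number of arrays, 3 in ST vehicle, limits the precision.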
